A study of Mus musculus with 10 samples.

Results

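Long stretches of clustered open sites were sought in mouse chromatin mapped by FAIRE-seq. This assay recovers DNA that stays in the aqueous phase when crosslinked, sheared chromatin is extracted with phenol and chloroform, and so favours regions poor in nucleosomes. The members were chosen by measured values, the positions and spacing of the sites. Within each list, neighbours less than 1000 bp apart were joined into a chain, and a stretch was a chain that spanned at least 10 kb and held at least 5 sites. The search covered the 19 autosomes without chromosome 14 from 86000001 to 121000000, a segment dense in sites of neural stem cells. It found 3511 stretches among 1148152 chains, single sites included, built from 1773191 sites. Positions are on mouse build mm9.

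The cells differ in developmental state. Embryonic stem cells (ESC) were of the E14 line, grown without feeders on gelatin in N2/B27 medium with LIF, 1 uM of a MEK inhibitor and 3 uM of a GSK3 inhibitor, the condition called ground-state pluripotency. Epiblast stem cells (EpiSC) were of the E3 line, which represents the primed state that follows implantation. They were expanded on fibroblast feeders in conditioned medium with 5 ng/ml FGF2 and were freed of feeders 2 days before crosslinking. The labels also give the EpiSC samples 15 minutes of the enzyme dispase. Neural stem cells (NSC) were progenitors obtained from ES cells and maintained in N2B27 with 10 ng/ml each of FGF2 and EGF. Embryonic fibroblasts (MEF) came from E16.5 embryos and grew in 10% serum. The source label of the MEF samples speaks of NSC chromatin, but their titles and cell type say fibroblasts, and these were followed. The labels give 2 samples to each cell type and 2 to a control of sheared genomic DNA. A single list of sites per cell type, filed with replicate 2, was used, so no difference between cell types has a replicate check and no test between them is given. ESC and EpiSC are each 1 cell line.

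Open chromatin is usually found as short, isolated sites at promoters, enhancers and insulators. Closely spaced sites occur at broad promoter regions, at gene clusters, along some highly transcribed genes and at large groups of enhancers, known as super-enhancers or stretch enhancers, which in many cell types lie near genes of cell identity. In a population of cells, a site open in a few cells and a site weakly open in all of them cannot be told apart. No gene annotation of mm9 was used, so stretches are named by position only, and no sequence is printed for them.

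ESC held 54.3% of all stretches, NSC 35.1%, EpiSC 7.75% and MEF 2.91%. Of 249007 ESC chains 1905 (0.765%) were stretches, of 325025 NSC chains 1232 (0.379%), of 271393 EpiSC chains 272 (0.100%), and of 302727 MEF chains 102 (0.0337%). These numbers come from the positions that define a stretch and describe the lists. ESC stretches spanned 27.6 Mb, or 1.13% of the 2437 Mb examined. NSC stretches spanned 17.1 Mb (0.704%), EpiSC stretches 3.54 Mb (0.145%) and MEF stretches 1.24 Mb (0.0509%). ESC thus had 7.0 times as many stretches as EpiSC, the other pluripotent type, from 1.14 times as many sites. NSC had 12.1 times as many as MEF from 1.27 times as many sites. The lists also differ in the bases that sites cover, on which chaining depends as well. All ESC sites covered 9.23% of the length and EpiSC sites 7.07%, NSC sites 9.69% and MEF sites 6.72%.

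The share of sites that lay in stretches followed the same order. ESC had 5.02% (exact 95% binomial interval 4.96 to 5.09), NSC 2.75% (2.71 to 2.79), EpiSC 0.716% (0.689 to 0.743) and MEF 0.275% (0.260 to 0.292). These intervals take in counting error only, and sites of a chain are not independent. Read depth is unknown and can move all these numbers. With lists of equal length, made of the 383973 highest-scoring sites of each, the order held, with 1330 stretches in ESC, 598 in NSC, 272 in EpiSC and 63 in MEF.

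Most stretches were only a little longer than the minimum. The median span was 12741 bp in ESC (quartiles 11143 and 15996), 12312 bp in NSC, 11980 bp in EpiSC and 11448 bp in MEF. Spans of 20 kb or more were reached by 225 ESC stretches (11.8%), 104 NSC stretches (8.44%), 17 EpiSC stretches (6.25%) and 2 MEF stretches (1.96%). At 40 kb or more there remained 11 in ESC and 5 in NSC. The threshold fell on a smooth slope, with 600 ESC chains of 5 or more sites from 9 to 10 kb and 430 from 10 to 11 kb. For NSC the numbers were 442 and 338, for EpiSC 119 and 74, and for MEF 69 and 44. The longest chains left out measured 9999 bp in ESC and NSC, 9998 bp in EpiSC and 9987 bp in MEF. The shortest kept measured 10006, 10011, 10003 and 10031 bp. A further 20 ESC, 14 NSC, 4 EpiSC and 3 MEF chains were long enough but held fewer than 5 sites.

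**Figure D1:**
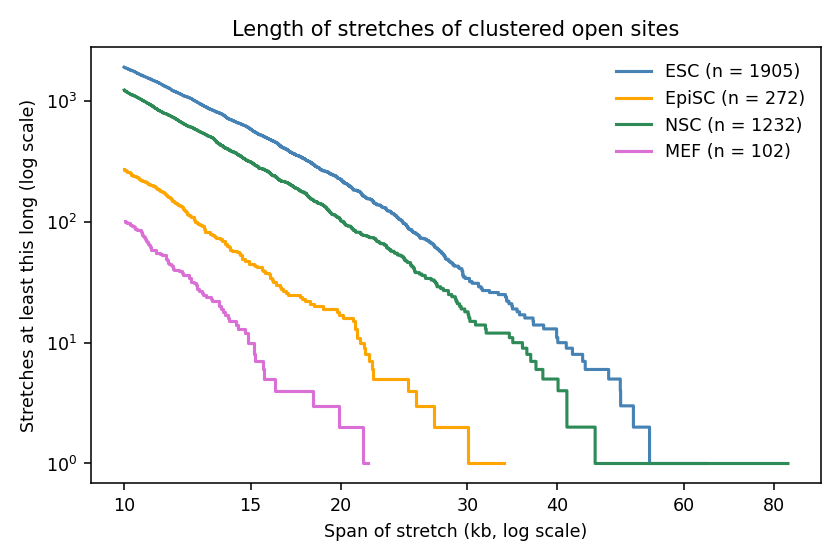
Number of stretches at least as long as the span on the horizontal axis (kb), for each of the 4 lists, both axes logarithmic. ESC stretches outnumber those of NSC at 20 kb (225 against 104) and at 40 kb (11 against 5), the longest of all is an NSC stretch of 83628 bp, and no MEF stretch exceeds 21826 bp.

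Inside, the stretches of the 4 cell types had similar numbers of sites and cover, which the rule on gaps, span and sites in part sets. The median number of sites per kb ran from 0.792 in EpiSC to 0.937 in MEF. The median number of sites was 11 in ESC, NSC and MEF and 10 in EpiSC. Sites covered a median of 66.0% of the span in MEF, 70.6% in NSC, 71.8% in EpiSC and 72.0% in ESC, and single stretches ranged from 34.5% to 96.7%. The widest gap within a stretch had a median of 850 to 877 bp across lists, close to the 1000 bp allowed. Sites in stretches were wider than the rest of their list, with a median of 634 bp against 366 bp for ESC, 628 against 337 for EpiSC, 542 against 329 for NSC and 529 against 324 for MEF. Width carries much of the rule. When every site was set to 200 bp about its midpoint, which lengthens gaps by construction, 18 stretches were left in ESC, 18 in NSC, 5 in MEF and 0 in EpiSC.

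The authors' score, which the rule did not use, was higher inside stretches in every list. Its scale is not stated, so it is read only within a list. The median score of sites in stretches was 5.27 in ESC, against 3.40 for the other ESC sites. MEF had 4.80 against 3.32, NSC 5.83 against 3.85 and EpiSC 4.07 against 2.89. Chains of 5 or more sites under 10 kb lay between, at 4.07 for ESC, 3.88 for MEF, 4.67 for NSC and 3.41 for EpiSC. Width and score are linked, and among sites 250 to 350 bp wide the difference was smaller, with 3.34 against 2.64 for ESC, 2.91 against 2.46 for EpiSC, 4.09 against 3.34 for NSC and 3.69 against 2.88 for MEF. Within stretches, the first and last sites scored lower than the inner ones, at 4.46 against 4.88 in MEF, 4.87 against 6.07 in NSC, 3.43 against 4.34 in EpiSC and 4.65 against 5.43 in ESC. Not all stretches scored high: in 225 ESC (11.8%), 149 NSC (12.1%), 45 EpiSC (16.54%) and 10 MEF stretches (9.80%) the median score was below that of the list.

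Few stretches were shared as stretches. Merging the 4 sets gave 3277 regions that spanned 47.2 Mb, of which 3090 (94.3%) held a stretch of 1 list only, 158 (4.82%) of 2, 26 (0.793%) of 3, and 3 (0.0915%) of all 4. Of ESC stretches 91.5% overlapped no stretch of another list (95% interval 90.2 to 92.7), of NSC 91.4% (89.7 to 92.9), of MEF 68.6% (58.7 to 77.5) and of EpiSC 55.5% (49.4 to 61.5). These shares depend on how many stretches the other lists hold, so the smaller sets have more to meet. Of all sites, at most 1.37% of ESC, 1.53% of NSC, 1.79% of MEF and 3.07% of EpiSC lay in a stretch of any 1 other list. A site is much shorter than a stretch, so the 2 kinds of share are not like for like. Lack of a partner stretch is not lack of sites: the other lists pooled covered a median of 42.1% of ESC and 38.7% of NSC stretches. Intervals on shares of stretches, here and below, take in counting error only, and neighbouring stretches are not independent.

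By share of the smaller set, EpiSC stretches overlapped ESC stretches most, and ESC was also the largest set to meet. Of the 272 EpiSC stretches, 105 (38.6%, 95% interval 32.8 to 44.7) overlapped an ESC stretch by at least 1 bp, whereas 3.07% of all EpiSC sites lay in an ESC stretch. Those overlaps took in 106 of the 1905 ESC stretches (5.56%), against 0.533% of all ESC sites. A stretch is much longer than a site and so touches a stretch more easily. The site shares, here and for the other pairs, are therefore not like for like with the shares of stretches. In 73 of the 105 EpiSC stretches the ESC partner was the longer. In the remaining 167 EpiSC stretches, ESC sites covered a median of 46.4% of the span and their longest chain had a median span of 5113 bp. In the opposite direction, the 1799 ESC stretches without an EpiSC stretch were covered to a median of 26.9% by EpiSC sites, with a longest chain of 2901 bp. Only 11 ESC stretches had no EpiSC site at all, and each of the 272 EpiSC stretches had at least 1 ESC site.

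MEF stretches overlapped NSC stretches in a smaller share than EpiSC stretches overlapped those of ESC. Relative to the site shares given beside them the order of pairs differs, as for MEF in EpiSC below. The limit of these site shares is the one just given. Of the 102 MEF stretches, 22 (21.6%, 14.04 to 30.8) overlapped an NSC stretch, with 1.79% of all MEF sites in one. They met 22 of 1232 NSC stretches (1.79%), against 0.139% of all NSC sites. In 18 of the 22 the NSC partner was the longer. Across the divide, 74 NSC stretches (6.01%) met an ESC stretch, against 1.53% of NSC sites, and they took in 79 ESC stretches (4.15%), against 1.37% of ESC sites. EpiSC met NSC in 38 of its stretches (13.97%, against 1.57% of all its sites), which took in 39 NSC stretches (3.17%, against 0.274%). MEF met ESC in 10 (9.80%, against 1.57%) and EpiSC in 10 (9.80%, against 0.314%), and these took in 9 ESC stretches (0.472%, against 0.113%) and 9 EpiSC stretches (3.31%, against 0.138%). The 102 longest stretches of each list were also compared, a choice made after seeing the data. EpiSC shared 8.82% with ESC and 4.90% with NSC, and NSC shared 1.96% with ESC. MEF shared 5.88% with EpiSC, 2.94% with NSC and 0.980% with ESC. These shares rest on few stretches.

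A finer measure is the share of a stretch that sites of another list cover, since those sites took no part in choosing it. Sites of the 3 other lists pooled covered a median of 70.9% of EpiSC stretches, 59.4% of MEF stretches, 42.1% of ESC stretches and 38.7% of NSC stretches. List by list, EpiSC stretches had a median of 55.8% of their bases covered by ESC sites, 28.8% by NSC sites and 17.3% by MEF sites. Over all bases examined, ESC sites covered 9.23%, NSC sites 9.69%, MEF sites 6.72% and EpiSC sites 7.07%. Summed over stretches, the cover of EpiSC stretches was thus 6.01 times the general cover for ESC sites, 3.44 times for NSC and 3.33 times for MEF. MEF stretches had a median of 42.1% covered by NSC sites, 19.01% by EpiSC sites and 18.5% by ESC sites, and ratios of 4.31, 3.78 and 2.53. ESC stretches were covered to a median of 27.9% by EpiSC, 15.8% by NSC and 9.30% by MEF, at ratios of 4.38, 2.09 and 1.90. NSC stretches were covered to 19.2% by MEF, 14.6% by EpiSC and 14.3% by ESC, with ratios of 3.17, 2.72 and 2.14. Set against the 10 kb on each side instead, mean cover was only 1.38 times (ESC stretches by NSC sites) to 2.20 times (EpiSC stretches by MEF sites). For EpiSC stretches the order was reversed, with 1.77 for ESC sites, 1.89 for NSC and 2.20 for MEF. MEF stretches had 2.09 for EpiSC sites, 2.01 for NSC and 1.46 for ESC.

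**Figure D2:**
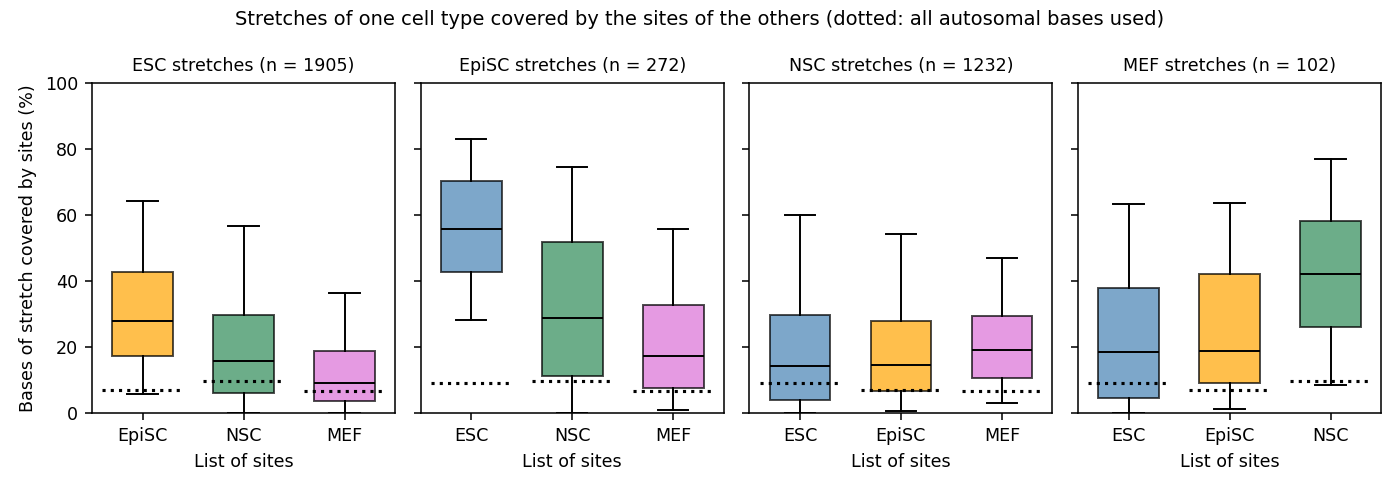
Share of the bases of each stretch covered by the sites of the other lists (percent), 1 panel per list of stretches; boxes show the median and quartiles, whiskers the 5th and 95th percentiles, and dotted lines the cover of all bases examined. All 12 medians lie above their dotted line, and the highest is the cover of EpiSC stretches by ESC sites, at 55.8%.

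Single stretches spread widely around these medians. At least 50% of the span was covered by ESC sites in 167 EpiSC stretches (61.4%), by NSC sites in 36 MEF stretches (35.3%), and by EpiSC sites in 283 ESC stretches (14.9%). At the other end, 145 ESC stretches (7.61%) held no NSC site and 177 (9.29%) no MEF site, while 143 NSC stretches (11.6%) held no ESC site. Among all single sites, 33.0% of ESC sites overlapped an NSC site and 24.5% a MEF site, and 25.9% of NSC sites an ESC site. A stretch is much longer than a site and meets other sites more easily, so these shares are not like for like. With the 3 other lists pooled, less than 10% of the span was covered in 77 ESC stretches (4.04%), 55 NSC stretches (4.46%), 2 MEF stretches (1.96%) and 0 EpiSC stretches. A single stretch in each of ESC, NSC and MEF was touched by no site of any other list.

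Taken site by site, the sharing depended on width. Of ESC sites in stretches 50.6% overlapped an EpiSC site, against 40.3% of all ESC sites, and 36.4% an NSC site, against 33.0%. A MEF site was overlapped by 27.4% of ESC sites in stretches, against 24.5% of all ESC sites. Of EpiSC sites in stretches 75.6% overlapped an ESC site, against 45.1% of all, 51.5% an NSC site, against 38.5%, and 40.9% a MEF site, against 29.1%. Of NSC sites in stretches 32.5% overlapped an ESC site, against 25.9%, 34.6% an EpiSC site, against 27.4%, and 42.85% a MEF site, against 31.0%. Of MEF sites in stretches 65.6% overlapped an NSC site, against 40.2%, 42.9% an EpiSC site, against 27.1%, and 38.1% an ESC site, against 25.5%. Among sites 250 to 350 bp wide, EpiSC sites in stretches still overlapped ESC more often than the other EpiSC sites of that width, at 56.1% against 34.6%, and MEF sites overlapped NSC at 60.6% against 34.9%. The order turned for ESC sites in NSC (28.3% in stretches, 30.4% elsewhere) and in MEF (18.1% and 21.1%), and for NSC sites in ESC (16.1% and 19.04%) and in EpiSC (19.5% and 20.8%).

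Edges drawn in 1 list were also visible in the others. In the 2 kb inside the edge of ESC stretches EpiSC sites covered 29.2% of bases, against 12.5% in the 2 kb outside and 19.4% at 18 to 20 kb away. MEF sites fell from 12.7% inside to 6.69% outside and covered 9.50% at 18 to 20 kb away, against a general cover of 6.72%. At the edges of EpiSC stretches ESC sites covered 53.5% inside and 26.3% outside, and at those of MEF stretches NSC sites covered 38.7% and 20.7%. The smallest step was that of ESC sites at NSC stretches, from 18.4% to 13.0%, and at 1.42 times it compared with 1.45 to 2.34 times for the other pairs. Over the 10 kb on both sides as a whole, cover by the other list was higher inside than in the flanks for 96.3% of EpiSC stretches in ESC, 87.3% of MEF stretches in NSC, 77.5% of ESC stretches in EpiSC and 59.3% of ESC stretches in NSC.

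**Figure D3:**
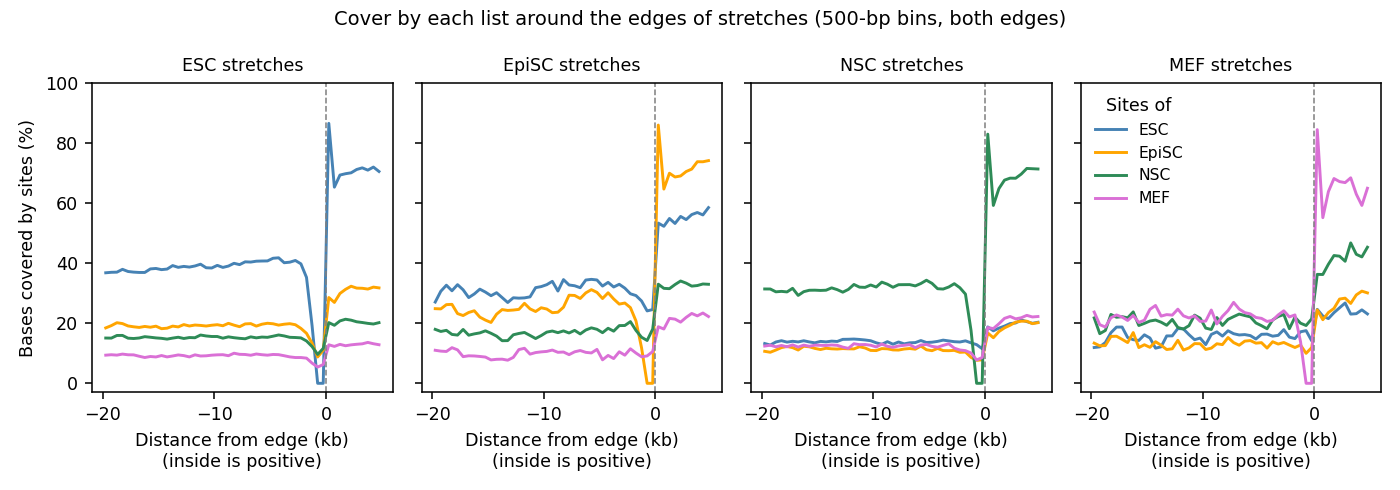
Share of bases covered by sites of each list (percent) in bins of 500 bp around the edges of stretches, from 20 kb outside (negative) to 5 kb inside (positive), both edges combined, 1 panel per list of stretches. The list itself drops to 0 just outside by the rule, and the sites of the other lists step down at the same place, as EpiSC sites do at ESC stretches, from 29.2% to 12.5% within 2 kb of the edge. Overlap of single sites between lists alone can give such a step.

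The surroundings of stretches were open as well. In ESC, sites of the same list covered 37.2% of bases at 18 to 20 kb outside the edge against 9.23% in general, and in NSC 31.0%, EpiSC 25.5% and MEF 20.96%. Stretches also lay near each other. Another stretch of the same list was within 50 kb of 931 ESC stretches (48.9%), 481 NSC stretches (39.0%), 42 EpiSC stretches (15.4%) and 14 MEF stretches (13.7%). ESC had 105 windows of 1 Mb with 5 or more stretches, which held 750 of them, and the fullest, chromosome 11 from 97000001 to 98000000, held 22. The fullest NSC window, chromosome 15 from 62000001 to 63000000, held 14. Beyond the edge the next site of the list was less than 2 kb away at 59.7% of ESC edges, 58.0% of NSC edges, 46.1% of MEF edges and 41.4% of EpiSC edges, so that a gap of under 2000 bp would join on many neighbours.

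Stretches were spread over the chromosomes more unevenly than sites. Chromosome 8 held 301 ESC stretches (15.8%) and 7.65% of ESC sites, and chromosome 11 held 218 (11.4%) and 7.21%. Chromosome 11 held 61 EpiSC stretches (22.4%) and 8.31% of EpiSC sites, at 7.04 times the median density of stretches over autosomes. It was also the richest in NSC, with 132 stretches (10.7%), and held 11 of the 102 MEF stretches (10.8%). EpiSC had 1 stretch on chromosome 18 and 2 on chromosome 12, with 2.45% and 3.20% of its sites. NSC chromosome 15, with 86 stretches, stood at 1.75 times the median density. Without chromosome 8, ESC kept 1604 stretches, and without chromosome 11, EpiSC kept 211.

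**Figure D4:**
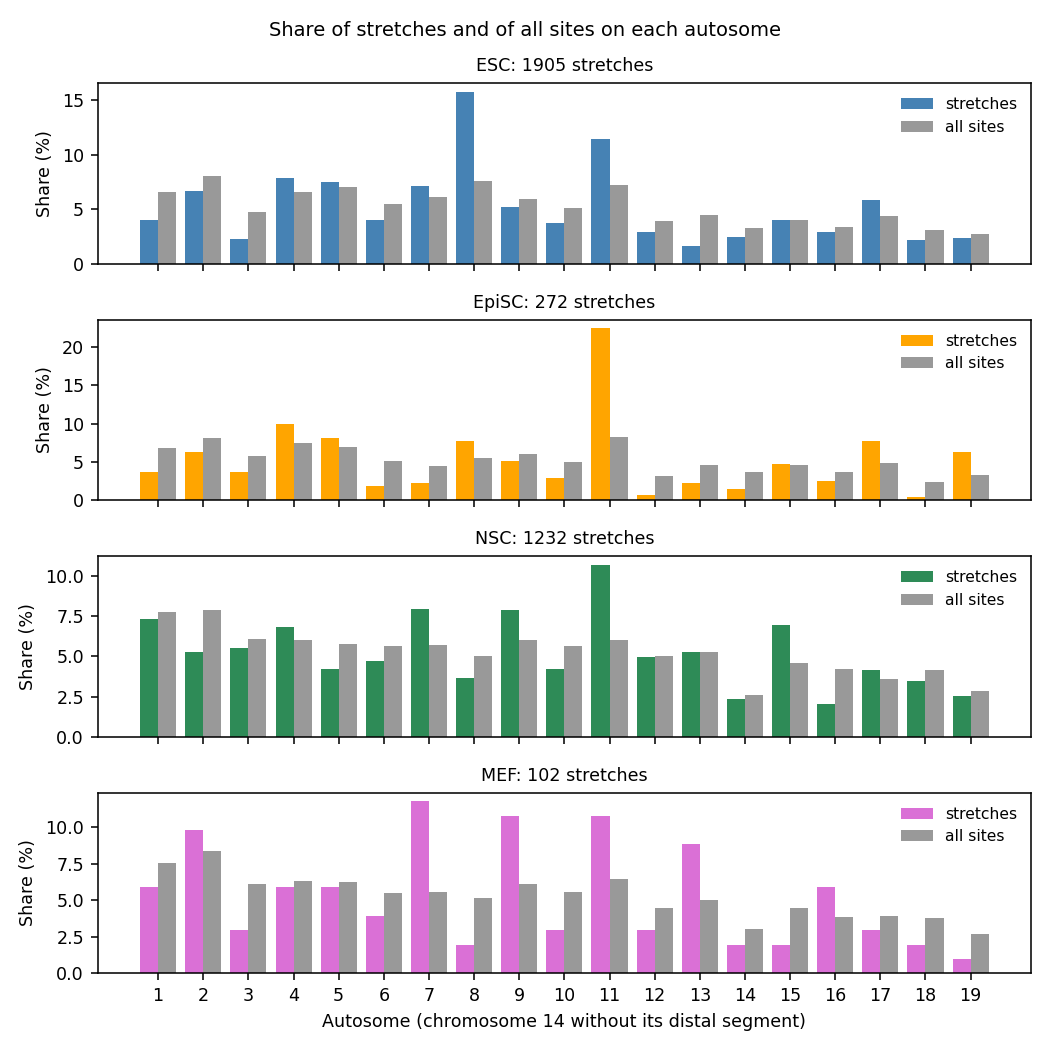
Share of the stretches (coloured) and of all sites (grey) of each list on each autosome (percent), 1 panel per list. Coloured bars rise above grey ones on chromosome 8 in ESC, at 15.8% against 7.65%, and on chromosome 11 in EpiSC, at 22.4% against 8.31%.

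The longest stretch of ESC lay on chromosome 12 from 87791429 to 87855860. Its 64432 bp held 44 ESC sites, the most of any ESC stretch, which covered 79.3% with a median score of 7.59, 2.20 times that of all ESC sites. EpiSC had 21 sites there that covered 21.4%, and 7 of them made a stretch of 11133 bp, from 87839094 to 87850226. NSC covered 8.41% with 13 sites and MEF 1.69% with 4. The cover thus fell from ESC through EpiSC and NSC to MEF.

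The next in ESC were chromosome 8, 109120077 to 109173801, and chromosome 11, 97654549 to 97705572. The first spanned 53725 bp, of which ESC sites covered 81.3%, EpiSC 44.9%, MEF 7.24% and NSC 3.94%, and it held an EpiSC stretch of 11567 bp. The other spanned 51024 bp, of which ESC sites covered 83.8%, NSC 28.1%, EpiSC 27.1% and MEF 13.8%, and held no stretch of another list. By number of sites, chromosome 8, 114447168 to 114496094 (42 sites) and chromosome 12, 103932170 to 103973333 (37 sites) came next, with EpiSC cover of 28.4% and 31.0%. In each of these 5 stretches EpiSC sites covered between 21.4% and 44.9% of the span and ESC sites at least 69.3%.

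The longest EpiSC stretch, chromosome 4 from 62153032 to 62186754, was more open in MEF than in ESC. It spanned 33723 bp with EpiSC cover of 87.5% and a median score of 8.94, 3.09 times that of all EpiSC sites. MEF sites covered 66.2% and formed 2 stretches, NSC sites covered 39.9% and ESC sites 24.9%. MEF are the cell type that also served as feeders for the EpiSC, and a part of feeder cells in this signal was not tested. On chromosome 11, 120075945 to 120105991, EpiSC cover was 73.6%, with 69.9% in ESC and 72.5% in NSC, both of which had a stretch there, and 33.3% in MEF. On chromosome 15, 25668868 to 25695794, it was 76.4%, with 61.9% in ESC and 42.1% in NSC. The EpiSC stretch with the most sites, 25, was chromosome 11, 96187070 to 96208174. Its sites covered 64.3% with a median score of 2.82, about that of the list, against 22.6% in ESC, 29.3% in MEF and no site in NSC. A stretch on chromosome 2, 105506492 to 105531963, held 20 EpiSC sites, which covered 68.2%, while ESC covered 48.1%, MEF 12.9% and NSC 11.3%.

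The longest stretch of any list belonged to NSC, on chromosome 4 from 97287113 to 97370740. Its 83628 bp held 61 NSC sites that covered 78.1% at a median score of 8.84, which is 2.28 times that of all NSC sites. MEF had 40 sites that covered 21.1%, EpiSC 24 that covered 10.0% and ESC 6 that covered 2.07%. Among the 3 other lists, the cover was thus highest in the somatic one and lowest in ESC. With lists of equal length the longest NSC stretch measured 47619 bp.

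The second in NSC, chromosome 14 from 121296839 to 121341983, began 296838 bp beyond the segment that was left out. NSC sites covered 82.1% of its 45145 bp, against 14.6% to 18.5% in the other lists. The third, chromosome 8 from 10951577 to 10992826, contained an EpiSC stretch of 24827 bp, with cover of 83.6% in NSC, 59.3% in EpiSC, 35.5% in ESC and 28.4% in MEF. Those next in number of sites were chromosome 9, 71710327 to 71748522 (41 sites), and chromosome 18, 69726265 to 69763626 (34 sites). Their scores were 2.12 and 2.40 times the list median, and MEF covered 26.6% and 33.5% of them, more than ESC or EpiSC did.

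**Figure D5:**
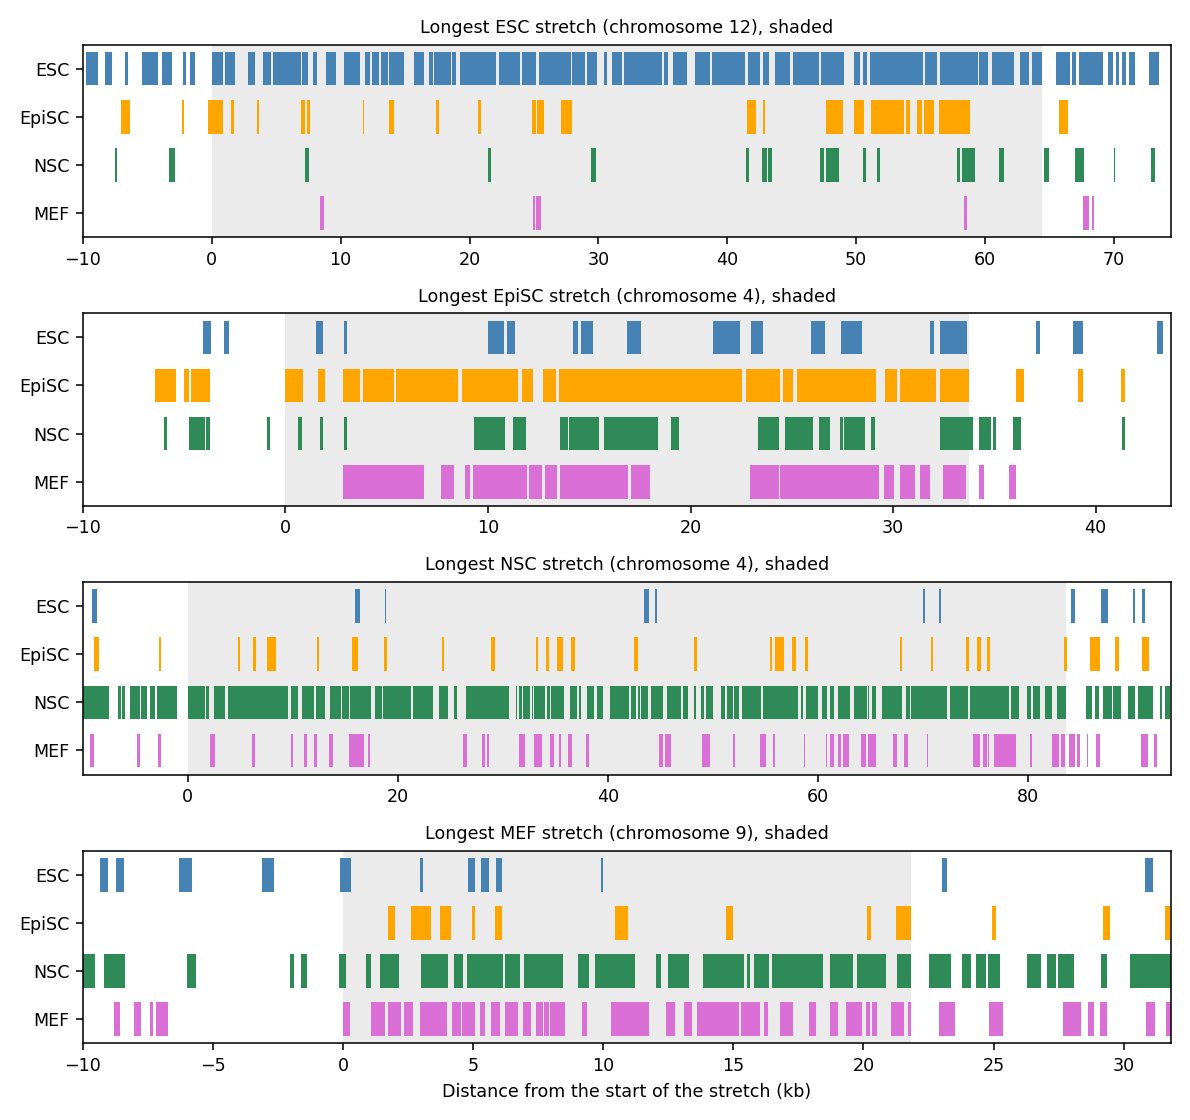
Open sites of the 4 lists (rows) across the longest stretch of ESC, EpiSC, NSC and MEF (panels), with the distance from the start of the stretch in kb and the stretch shaded. The sites of the named list cover 79.3%, 87.5%, 78.1% and 61.5% of the shaded spans, and in the lowest panel NSC sites cover more, 71.3%, than the MEF sites themselves.

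The longest MEF stretch was at least as open in NSC. It lay on chromosome 9 from 41384011 to 41405836, with 29 MEF sites that covered 61.5% of 21826 bp. NSC sites covered 71.3% of it and formed a stretch of 25400 bp, whereas EpiSC covered 15.4% and ESC 6.24%. On chromosome 1, 164137288 to 164158773, cover was 68.5% in MEF, 48.7% in NSC, 10.1% in EpiSC and 3.54% in ESC. The stretch on chromosome 11, 86383177 to 86403077, was broadly open, at 79.5% in MEF and 46.9% to 50.7% in the others. On chromosome 4, 63734577 to 63749005, 19 MEF sites covered 59.1% and NSC sites 77.0%, against 4.54% in EpiSC and 1.98% in ESC.

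Some stretches were almost without counterpart. In MEF, chromosome 7 from 54850660 to 54866332 held 12 sites and had a median score of 20.02, 6.03 times that of all MEF sites, with no site of another list. Also in MEF, neighbouring stretches on chromosome 8, 105735617 to 105749193 and 105753312 to 105764061, had no ESC site, and EpiSC and NSC sites covered at most 8.49% of either. In ESC, chromosome 8 from 12881753 to 12893090 held 8 sites at 0.919 times the list median and none of another list. The others least covered elsewhere were chromosome 10, 61200925 to 61216707, and chromosome 8, 113036866 to 113050700, each with 1 site of another list. In NSC, chromosome 18 from 86114204 to 86126822 held 12 sites and no other, and chromosome 12, 54473933 to 54484096, and chromosome 8, 56108832 to 56126858, each held a single ESC site. The EpiSC stretches least covered elsewhere still had 4 or 5 ESC sites. These were chromosome 5, 127239808 to 127251031, with ESC cover of 14.3%, chromosome 5, 119499666 to 119510712, with 19.8%, and chromosome 11, 118429918 to 118439920, with 29.1%.

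The 3 regions with a stretch in every list were chromosome 19, 5822312 to 5853474, chromosome 7, 106495267 to 106514559, and chromosome 11, 76096535 to 76110376. In the first, of 31163 bp, ESC sites covered 76.4%, EpiSC 64.7%, NSC 59.2% and MEF 42.7%. In the region on chromosome 7 these were 69.0%, 45.9%, 68.8% and 52.9%. On chromosome 11 the 4 stretches, of 12922, 13811, 13738 and 12323 bp, nearly coincided, with cover of 62.2% to 75.2%.

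Among regions with a stretch in both pluripotent types and in no somatic one, 76 in number, the 3 longest were the ESC stretches on chromosomes 12 and 8 given above and chromosome 8, 123019499 to 123068479. The last was covered to 90.0% by 19 ESC sites, 54.6% by EpiSC, 22.8% by NSC and 6.18% by MEF. In all 3 the EpiSC part measured 11133 to 12214 bp. The NSC and MEF counterpart set held 17 regions. Its longest were chromosome 13, 111683016 to 111709998, chromosome 9, 41383871 to 41409270, and chromosome 4, 63734290 to 63759613, in which NSC covered 69.8% to 74.9%, MEF 41.0% to 57.0%, EpiSC at most 13.9% and ESC at most 6.71%.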

How the data were processed

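FAIRE-seq libraries were made from PCR-amplified fragments of 150 to 400 bp and sequenced on an Illumina Genome Analyzer, per the labels' protocols. Sites are on mm9 and CASAVA 1.8 was used, per the submitters' processing notes. Each of the 4 deposited lists gives a score per site, computed by the authors. Not given in the sources used here are its unit, the aligner, the thresholds, the part of the genomic control and any pooling of replicates. The display value differed from 100 times the score, capped at 1000, by at most 1. The other 6 samples were not analysed here. Read depth is unknown.

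Starts count from 0 in the lists and are printed from 1. Chains were formed by gaps under 1000 bp and kept at 10 kb and 5 sites. Chromosome lengths run to the last site of any list. Stretches overlap where they share 1 bp. Shares carry exact (Clopper-Pearson) 95% intervals. Flanks were 10 kb on each side. Stretches were named by rule: in each list the 3 longest, the 3 with most sites and the 3 least covered elsewhere, plus the 3 longest shared by all lists, by ESC and EpiSC only, and by NSC and MEF only. The rule for stretches and the naming were chosen with earlier results of these data known. The planned naming of genes was not run, because no mm9 annotation was used here.

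The software was matplotlib 3.10.9, scipy 1.17.1, pandas 2.3.3 and numpy 2.4.6 under Python 3.11.15. In a simulated list all 300 planted stretches were recovered among 3000 chains, and bedtools 2.31.1 gave the same numbers of stretches and of overlaps in the real lists.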

Additional observations from a re-analysis of the deposited data

Results flagged for a closer look

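The segment of chromosome 14 that was left out, from 86000001 to 121000000, held 356 NSC stretches under the same rule and is in no comparison of the report. They took in 34.3% of the 18366 NSC sites of the segment and 21.3% of its length, and the longest measured 100068 bp, above any stretch elsewhere. ESC had 3 stretches in the segment, MEF 1 and EpiSC 0. Of the lists with sites on chromosome X (ESC, NSC and MEF) or Y (ESC and MEF), none had a stretch there, and the EpiSC list held no site on either. The segment was left out for its density in NSC, so these numbers are a description.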

How the results depend on the processing

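An unknown depth stands behind every number of stretches. No paired analysis was possible because a single list stood for each cell type, which also left no replicate to leave out. Of the numbers of stretches, covered shares and 6 sharing values (each the share of the smaller set), 72 values stayed within 1.5 times or within their interval under the alternatives and 116 moved. Fewer or shorter chains follow by construction from narrower gaps, longer spans or fewer sites. Also by construction, wider gaps join chains into longer ones, shorter spans admit more chains, and sites set to 200 bp lengthen gaps. Otherwise the cause was not tested. ESC had the most stretches and NSC the next most under each alternative, tied at 18 with sites of 200 bp, and EpiSC had more than MEF except where sites were set to 200 bp.

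Values are in the order ESC, EpiSC, NSC and MEF. Gaps under 500 bp gave 330, 39, 229 and 3 stretches over 0.181%, 0.0213%, 0.120% and 0.00150% of the length. Gaps under 2000 bp gave 8076, 2695, 6968 and 1907 over 5.82%, 1.56%, 4.59% and 1.05%. Spans of 20 kb gave 225, 17, 104 and 2 over 0.238%, 0.0163%, 0.112% and 0.00178%, and spans of 5 kb 8274, 2365, 6859 and 1611 over 2.92%, 0.712%, 2.26% and 0.444%. The 50% of sites with the highest scores gave 523, 68, 307 and 20 over 0.297%, 0.0364%, 0.171% and 0.00949%. Sites of 200 bp gave 18, 0, 18 and 5 over 0.00819%, 0%, 0.00804% and 0.00228%. With equal lists as well, a choice made after the data were seen, they gave 9, 0, 7 and 2 over 0.00399%, 0%, 0.00308% and 0.000932%. With 10 or more sites EpiSC had 139 over 0.0821%. Lists of equal length gave 598 NSC stretches over 0.333% and 63 MEF stretches over 0.0319%.

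Sharing of EpiSC stretches with ESC was 18.0% with gaps under 500 bp, 56.5% with gaps under 2000 bp, 17.6% at 20 kb, 25.9% with 10 sites, 31.6% with equal lists and 26.5% with the highest-scoring 50%. EpiSC with NSC came to 23.8% with gaps under 2000 bp, 5.88% at 20 kb, 18.9% at 5 kb, 9.19% with equal lists and 8.82% with the highest-scoring 50%. NSC with ESC came to 3.93%, 15.9%, 1.92%, 10.4%, 3.54% (10 sites) and 2.61% (highest-scoring 50%), to 4.64% without chromosome 11 and to 4.06% where 50% of the stretch had to be overlapped. MEF with ESC came to 0%, 19.6% and 0% (20 kb), and to 4.76% with equal lists. MEF with EpiSC came to 0% with gaps under 500 bp and at 20 kb, and 2.86% with 10 sites. MEF with NSC came to 0%, 36.6%, 50% (1 of the 2 stretches of 20 kb), 11.1% with equal lists and 5% with the highest-scoring 50%. With sites of 200 bp, in lists of any length, all sharing that could be computed was 0%. Among the longest 102 stretches of each list, a choice made after the data were seen, EpiSC shared 8.82% with ESC and 4.90% with NSC, NSC 1.96% with ESC, and MEF 0.980% with ESC and 2.94% with NSC. Counting a stretch as shared where single sites covered 20% of it gave 97.8% (EpiSC by ESC), 62.9% (EpiSC by NSC), 39.2% (NSC by ESC), 44.1% (MEF by ESC), 48.0% (MEF by EpiSC) and 81.4% (MEF by NSC). At 50% the first 3 were 61.4%, 26.8% and 9.42%, and the last 35.3%.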
